A study of Sus scrofa with 12 samples.

Results

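Prolactin and growth hormone receptor signalling was followed here through 8 genes in the left ventricle of pigs: the receptors PRLR and GHR, the kinase JAK2, the transcription factor STAT5A, the feedback inhibitors SOCS2 and CISH, and the target genes IGF1 and PIM1. They were chosen by gene symbol, out of 12361 genes with a symbol of their own on the array. Array values of these genes, and their correlations, had already been looked at when the set was drawn up, so their levels, differences and correlations are given as descriptions, with standard errors (SE) or deviations (SD) and without tests. Each gene had 1 probe set, the group of short probes that measures 1 transcript, except STAT5A with a pair of them, which makes 9 in all. All 9 passed the filter that left out the dimmest 25% of probe sets.

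The pigs were females aged 13 months. Septum EXP and free wall EXP are septal and free wall tissue, taken at papillary muscle level, of paced pigs, in which atrioventricular block was made with an ablation catheter and a VDD pacemaker implanted. Such a device senses the atrium and paces the ventricle, here through a lead on the right ventricular septum. Septum CTL and free wall CTL are the same tissues of control (sham) pigs, and the label text says that leads were fixed in all pigs. Tissue was taken after 6 months. The study enrolled 12 pigs, 6 per treatment, and each of the 4 groups had 3 arrays. Septum and free wall arrays carry the same numbers within a treatment, but which arrays came from 1 animal is not given.

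Both receptors belong to the class I cytokine receptors. They have no kinase of their own and, once hormone is bound, work through the attached kinase JAK2, which phosphorylates STAT5 proteins, and these then enter the nucleus. STAT5 switches on CISH and SOCS2, which dampen the same receptors, as well as IGF1, the growth factor through which much of growth hormone's effect is carried, and the survival kinase PIM1. In the heart, growth hormone and IGF1 are known for their effect on muscle mass, and a cleaved form of prolactin has been linked to cardiomyopathy around childbirth.

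All values are RMA signals on the log2 scale, so a difference of 1 is a doubling. Array medians lay between 4.305 and 4.45. Free wall EXP array 2 was the odd one out. Its score on principal component 1 was -45.27, outside the span of the remaining arrays (-19.23 to 22.28), and limma gave it a weight of 0.2397 where the rest had 0.6306 to 1.683. The muscle identity of the tissue was clear from the markers. The 7 cardiomyocyte markers on the array averaged 11.67 to 11.87 in every array, and MYH7, the slow myosin heavy chain, averaged 12.52. Of all 20668 probe sets tested with limma, 2 passed an adjusted p under 0.05 for pacing in the septum, 1 for pacing in the free wall, 0 for the difference between these effects, 0 for septum against free wall in paced pigs, 0 in control pigs and 2 for the mean of both treatments.

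PRLR and the inhibitors SOCS2 and CISH were higher in the septum than in the free wall, in paced and in control pigs, while IGF1 and JAK2 were lower there. GHR and STAT5A differed little between regions. The mean septum minus free wall difference over both treatments was 1.82 (SE 0.34) for PRLR, a fold of 3.52, 1.09 (SE 0.26) for CISH and 0.90 (SE 0.12) for SOCS2. It was -0.57 (SE 0.21) for IGF1 and -0.33 (SE 0.11) for JAK2. Adjusted over all probe sets, 0 of the 8 genes passed for this mean, where 0.00968% of all probe sets did and 7.83% had an unadjusted p under 0.05. These are contrasts that the choice of genes had used, and nothing is read from the count.

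**Figure D1:**
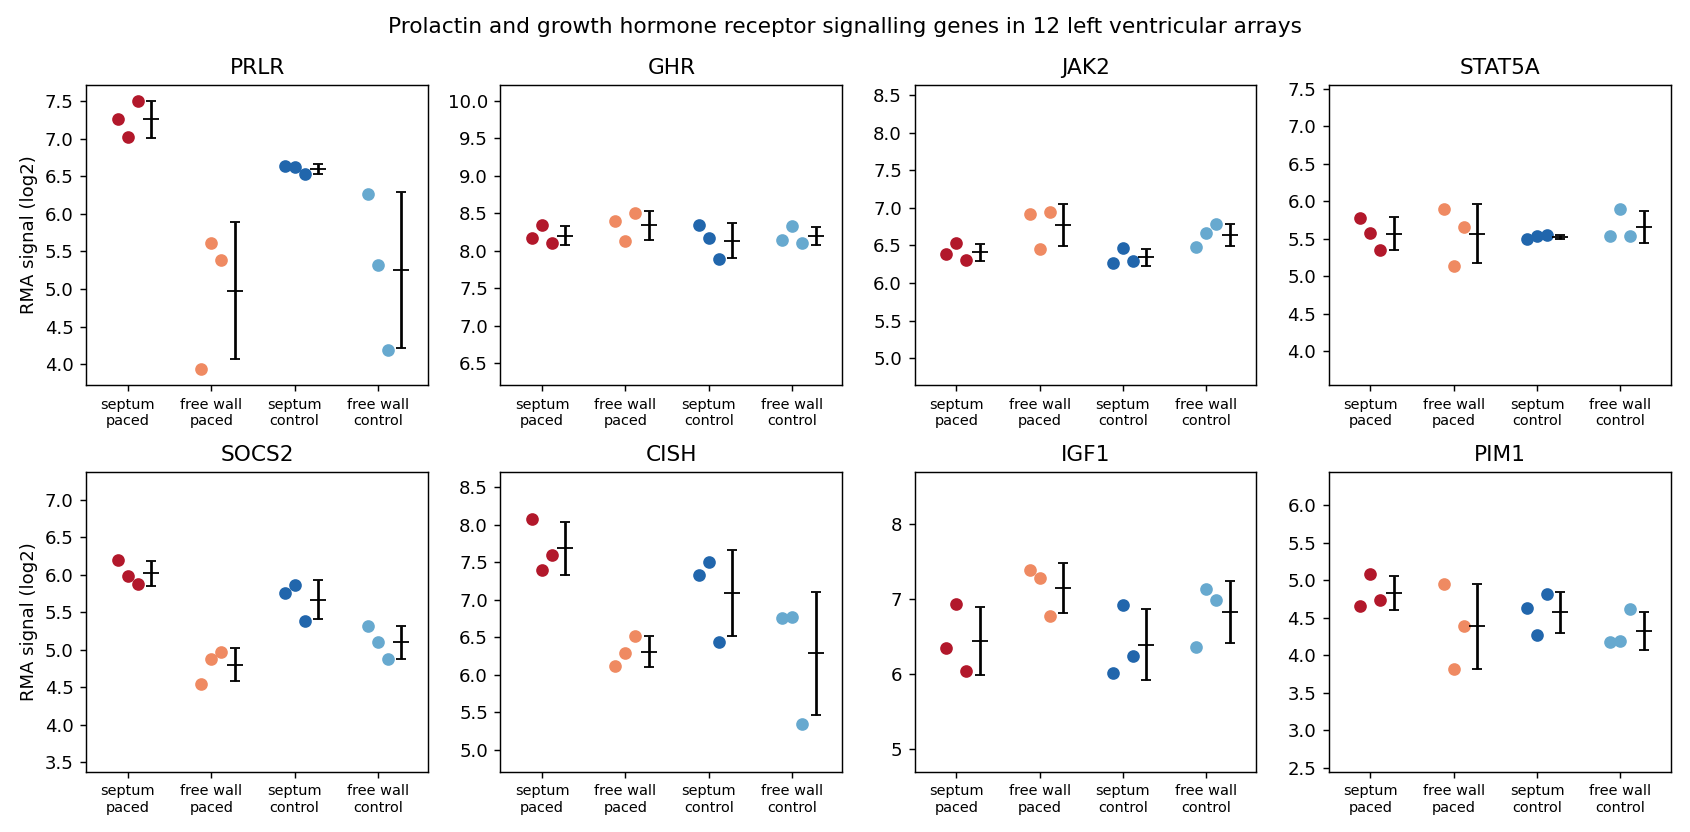
RMA signal (log2) of the 8 genes in the 12 arrays, with 1 panel per gene, points for arrays and bars for the mean ± SD of 3 arrays; each axis spans 4 log2 units but starts at another level, since probe sets are not compared in level. All 6 septum points of PRLR and SOCS2 lie above all 6 free wall points, IGF1 leans the other way, and GHR and STAT5A overlap in all 4 groups.

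The prolactin receptor PRLR had signals of 7.26, 7.02 and 7.51 in septum EXP arrays, 3.93, 5.61 and 5.39 in free wall EXP arrays, 6.64, 6.63 and 6.53 in septum CTL arrays and 6.26, 5.32 and 4.19 in free wall CTL arrays. Every septum array lay above every free wall array, and within the septum every paced array lay above every control array. The control septum was tight, at 6.60 ± 0.0608 (SD, n = 3), and the free wall was scattered, at 4.977 ± 0.913 in paced and 5.257 ± 1.04 in control pigs (SD, n = 3 each). Over the 6 arrays of a region the SD was 0.397 in the septum and 0.887 in the free wall. The lowest and highest free wall signals thus differed by more than the mean regional difference.

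In paced pigs PRLR was 2.29 (SE 0.48) higher in the septum, a 4.88-fold difference. In control pigs it was 1.34 (SE 0.48) higher, a 2.54-fold difference. Ranked from the highest difference down among the 20668 probe sets, PRLR stood at place 2 in paced pigs and place 8 in control pigs. As PRLR was chosen with these values known, nothing is read from its rank. The size in control pigs rests in part on single free wall arrays: it was 0.81 without free wall CTL array 3 and 1.85 without free wall CTL array 1. Without free wall EXP array 2, the array that stood apart, the paced difference was 2.60.

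SOCS2 encodes a suppressor of cytokine signalling that brakes the growth hormone receptor. Its signals were 6.20, 5.98 and 5.88 in septum EXP arrays, 4.55, 4.88 and 4.97 in free wall EXP arrays, 5.76, 5.87 and 5.38 in septum CTL arrays and 5.32, 5.10 and 4.88 in free wall CTL arrays. All septum arrays lay at or above 5.38 and all free wall arrays at or below 5.32, so the regions did not overlap but the gap between them was narrow. The difference was 1.22 (SE 0.17), or 2.33-fold, in paced pigs and 0.57 (SE 0.17), or 1.48-fold, in control pigs.

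CISH, the founding member of the same inhibitor family and a STAT5 target, had 8.07, 7.39 and 7.59 in septum EXP arrays, 6.11, 6.29 and 6.52 in free wall EXP arrays, 7.33, 7.50 and 6.44 in septum CTL arrays and 6.75, 6.77 and 5.34 in free wall CTL arrays. The regions did not overlap in paced pigs and overlapped in control pigs, where array 3 was the lowest of its group in both regions. The difference was 1.38 (SE 0.37), or 2.60-fold, in paced pigs and 0.80 (SE 0.37), or 1.75-fold, in control pigs. Without free wall CTL array 3 the control value was 0.33.

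IGF1 encodes insulin-like growth factor 1. Its signals were 6.35, 6.93 and 6.04 in septum EXP arrays, 7.39, 7.28 and 6.77 in free wall EXP arrays, 6.01, 6.92 and 6.24 in septum CTL arrays and 6.36, 7.14 and 6.99 in free wall CTL arrays. The groups overlapped in each treatment, with array 2 the highest of both septum groups. The difference was -0.71 (SE 0.30) in paced pigs and -0.44 (SE 0.30) in control pigs, which is 1.63-fold and 1.36-fold lower in the septum. The control value was -0.71 without septum CTL array 2 and -0.25 without septum CTL array 1.

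JAK2, the kinase shared by both receptors, had 6.39, 6.53 and 6.30 in septum EXP arrays, 6.92, 6.45 and 6.95 in free wall EXP arrays, 6.26, 6.47 and 6.29 in septum CTL arrays and 6.48, 6.66 and 6.78 in free wall CTL arrays. In control pigs all septum arrays lay below all free wall arrays, by a gap of only 0.01 between the nearest of them. In paced pigs free wall EXP array 2 lay within the septum's range and the other free wall arrays above it. The difference was -0.37 (SE 0.15) in paced pigs, -0.53 without free wall EXP array 2, and -0.30 (SE 0.15) in control pigs.

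GHR, the growth hormone receptor, stayed between 7.89 and 8.35 in the septum and between 8.11 and 8.50 in the free wall. Its regional difference was -0.14 (SE 0.15) in paced and -0.06 (SE 0.15) in control pigs. The 2 receptors differed in this respect: the regions did not overlap for PRLR and overlapped for GHR in both treatments.

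STAT5A, the transcription factor below both receptors, ranged from 5.35 to 5.78 in the septum and from 5.14 to 5.90 in the free wall. The difference was 0.00 (SE 0.19) in paced and -0.13 (SE 0.19) in control pigs. Its other probe set gave 0.00 (SE 0.18) and 0.02 (SE 0.18), and a probe set that matches both STAT5A and its neighbour STAT5B gave 0.02 (SE 0.14) and -0.02 (SE 0.14). All 3 probe sets lay within 0.13 of no difference in both treatments.

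PIM1, a serine/threonine kinase, had 4.65, 5.08 and 4.74 in septum EXP arrays, 4.95, 3.81 and 4.39 in free wall EXP arrays, 4.63, 4.27 and 4.81 in septum CTL arrays and 4.17, 4.19 and 4.61 in free wall CTL arrays. The groups overlapped throughout, with differences of 0.44 (SE 0.26) in paced and 0.25 (SE 0.26) in control pigs. Without free wall EXP array 2 the paced difference was 0.15, and without free wall EXP array 1 it was 0.72, while the control value ran from 0.13 without septum CTL array 3 to 0.40 without septum CTL array 2. The sign was that of SOCS2 and CISH, at a smaller size.

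In paced pigs the regions did not overlap, with the septum higher, for 3 of the 8 genes (PRLR, SOCS2 and CISH), against 6.44% of all probe sets, and for 0 with the septum lower, against 3.47%. In control pigs this held for 2 (PRLR and SOCS2), against 7.34%, and JAK2 did not overlap with the septum lower, against 5.77%. Over both treatments together, 6 arrays against 6, it held for PRLR and SOCS2, against 0.426% of all probe sets. Of the 8 genes 0 passed the adjusted p in paced or in control pigs, as did 0% of all probe sets, while 6.73% and 3.67% of all probe sets had an unadjusted p under 0.05. The median difference of the 8 genes was 0.22 in paced and 0.10 in control pigs, beside 0.01 for all probe sets in each. Because the genes were chosen with these values known, nothing is read from the counts or medians.

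Set side by side by array number, the septum was above the free wall in 6 of 6 pairs for PRLR, SOCS2 and CISH, where 4.09% of all probe sets had such pairs. For PRLR and SOCS2 this adds nothing, since regions without overlap give it under any pairing. Array numbers are not known to mark animals. For PRLR the pair differences were 3.33, 1.41 and 2.12 in paced and 0.38, 1.31 and 2.34 in control pigs. Control pair 1 was the smallest for PRLR, for SOCS2 (0.44) and for CISH (0.58), and paced pair 1 was the largest for all 3 genes, with 1.65 for SOCS2 and 1.96 for CISH. IGF1 was lower in the septum in 6 of 6 pairs, from -1.04 to -0.22, which 2% of all probe sets matched. JAK2 was lower in 5 of 6 pairs, and PIM1 was higher in 5 of 6, from -0.3 to 1.27. The choice of genes had used these values, so nothing is read from the numbers of pairs.

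**Figure D2:**
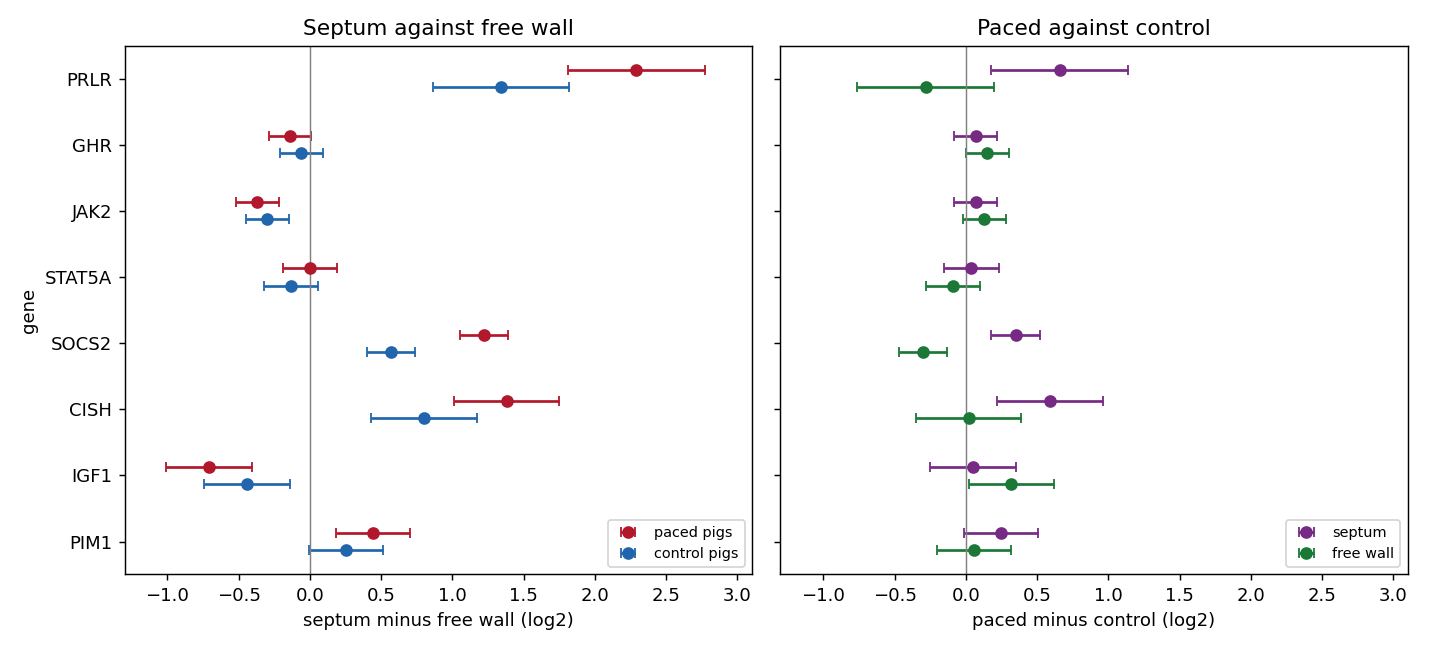
Differences (log2, points) with their standard errors (bars) for each of the 8 genes, septum minus free wall in paced and control pigs on the left and paced minus control in septum and free wall on the right. PRLR, SOCS2 and CISH lie right of 0 in both treatments on the left, from 0.57 to 2.29, and on the right no gene differs by more than 0.66 in either direction.

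Pacing was compared with control in each region. In the septum, which carried the lead on its right ventricular side, all 8 genes had a higher mean in paced pigs, while 49.3% of all probe sets did, but for 4 of the genes this sign rests on single arrays. Leaving out 1 array gave -0.20 for IGF1, -0.06 for GHR, -0.06 for STAT5A and 0.00 for JAK2, and the other probe set of STAT5A differed by -0.13 (SE 0.18). PRLR was 0.66 (SE 0.48) higher, a fold of 1.58, CISH 0.59 (SE 0.37) higher, a fold of 1.51, and SOCS2 0.35 (SE 0.17) higher, a fold of 1.27. Septum CTL array 3 bore on the last 2 of these: without it CISH differed by 0.27 and SOCS2 by 0.21. The SE of PRLR rests on the spread within all 4 groups, not only the septum. The SD of PRLR was 0.245 in septum EXP and 0.0608 in septum CTL arrays, but 0.913 in free wall EXP and 1.04 in free wall CTL arrays. For PRLR and SOCS2 the paced and control septum arrays did not overlap, against 5.76% of all probe sets, although the nearest SOCS2 arrays, 5.88 and 5.87, were 0.01 apart. No gene was below without overlap (0, against 4.78%). PIM1 differed by 0.25 (0.10 without septum CTL array 2), GHR and JAK2 by 0.07 each, IGF1 by 0.05 and STAT5A by 0.04. None of the 8 passed (0, against 0.00968% of all probe sets), and the median of the 8 was 0.16, beside -0.00 for all probe sets. Values of paced and control arrays were known when the genes were chosen, so nothing is read from these counts, signs or the median.

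In the free wall, paced arrays overlapped control arrays for every one of the 8 genes, while 3.63% of all probe sets were higher and 4.52% lower without overlap. PRLR differed by -0.28 (SE 0.48), SOCS2 by -0.30 (SE 0.17), IGF1 by 0.32 (SE 0.30) and CISH by 0.02 (SE 0.37). The sign for PRLR turned on single arrays, with 0.24 without free wall EXP array 1 and 0.22 without free wall CTL array 1. CISH was -0.45 without free wall CTL array 3, IGF1 0.08 without free wall CTL array 1 and SOCS2 -0.18 without free wall EXP array 1. GHR, JAK2 and PIM1 differed by 0.15, 0.13 and 0.06, and STAT5A by -0.09. Of the 8 genes 0 passed, against 0.00484% of all probe sets.

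The pacing effect in the septum minus that in the free wall was 0.94 (SE 0.68) for PRLR, 0.65 (SE 0.24) for SOCS2, 0.57 (SE 0.53) for CISH and -0.27 (SE 0.42) for IGF1. The standard errors describe the spread, and no test is read from them for these genes. Single arrays moved these values: PRLR was 0.42 without free wall EXP array 1 and 1.48 without free wall CTL array 3, CISH 0.25 without septum CTL array 3 and 1.05 without free wall CTL array 3, and IGF1 -0.51 without septum EXP array 2 and 0.00 without septum CTL array 2. SOCS2 stayed between 0.51 and 0.76. Of the 8 genes, 0 passed for this difference, as did 0% of all probe sets, of which 2.75% had an unadjusted p under 0.05. With both regions averaged by array number, 3 paced against 3 control values, PRLR differed by 0.19 (SE 0.31), CISH by 0.31 (SE 0.30), IGF1 by 0.18 and SOCS2 by 0.02. None of these 4 signs held when 1 array number was left out: without control number 3 PRLR and CISH were at -0.09 each and SOCS2 at -0.10, and without control number 1 IGF1 was at -0.03. Here 0 of the 8 passed, against 0.00484% of all probe sets (5.55% at an unadjusted p under 0.05), and 0 separated paced from control values, against 4.97% of all probe sets higher and 5.52% lower.

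Ordered by group mean, PRLR and SOCS2 gave the same sequence: free wall EXP lowest, then free wall CTL, septum CTL and septum EXP. For both genes the free wall groups overlapped as neighbours, and the steps above them did not. CISH had both free wall groups lowest, at 6.307 in paced and 6.287 in control pigs, and the paced septum highest, at 7.683, with overlap at every step. IGF1 and JAK2 ran the other way, with the control septum lowest and the paced free wall highest, and every pair of neighbours overlapped. GHR, STAT5A and PIM1 overlapped at every step too.

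PRLR, SOCS2 and CISH also went together from array to array, but PIM1, higher in the septum too, did not. These correlations were known when the genes were chosen. Correlations are over 12 arrays that share regions, 1 normalisation and possibly animals, 28 pairs of genes were computed, and septum and free wall form separate clusters for PRLR and SOCS2, so the values within each region stand beside the pooled ones. PRLR and SOCS2 had r = 0.92 (Spearman 0.94) over all arrays, 0.65 within the 6 septum arrays, 0.85 within the 6 free wall arrays and 0.69 once group means were subtracted. PRLR and CISH had 0.87 over all arrays, 0.67 within the septum, 0.75 within the free wall and 0.63 with group means subtracted. SOCS2 and CISH, the pair of inhibitors, had 0.90, 0.96, 0.56 and 0.83 in the same order. The positive sign thus held within each region for all 3 pairs.

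For JAK2 and IGF1, the genes lower in the septum, the values within the regions were less alike. PRLR and JAK2 had r = -0.81 over all arrays and -0.68 within the free wall, but 0.07 within the septum. PRLR and IGF1 had -0.71, with -0.65 within the free wall and -0.19 within the septum. JAK2 and IGF1 had 0.70, with 0.96 within the septum and 0.23 within the free wall. With group means subtracted, PRLR and JAK2 had -0.64, PRLR and IGF1 -0.49 and JAK2 and IGF1 0.40. PRLR and PIM1 differed in sign between these views: 0.12 over all arrays, 0.28 within the septum, -0.83 within the free wall and -0.76 with group means subtracted. SOCS2 and PIM1 had 0.28 over all arrays and -0.70 with group means subtracted, and CISH and PIM1 0.14 and -0.59. Leaving out the 2 arrays farthest from the PRLR median, free wall EXP array 1 and free wall CTL array 3, gave 0.92 for PRLR and SOCS2, 0.80 for PRLR and CISH, -0.68 for PRLR and JAK2, -0.63 for PRLR and IGF1 and 0.70 for PRLR and PIM1.

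**Figure D3:**
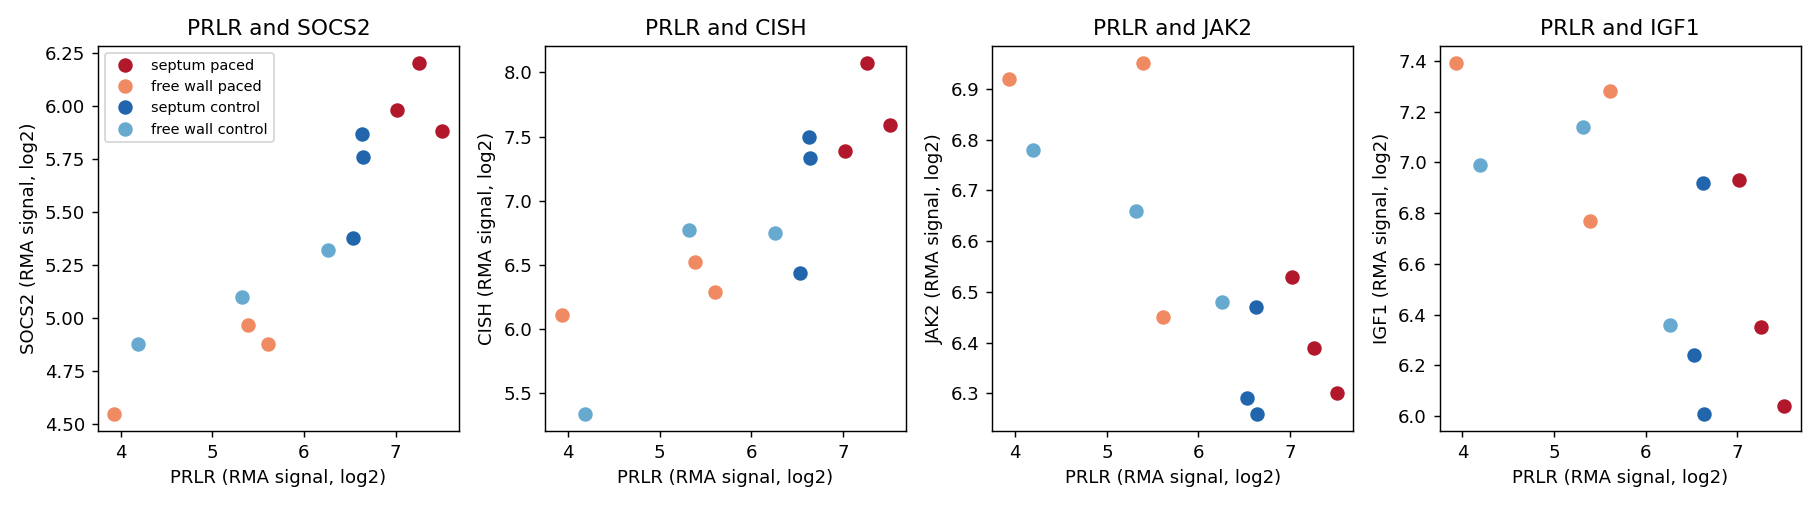
Signal of SOCS2, CISH, JAK2 and IGF1 (vertical axes, RMA log2) against that of PRLR (horizontal axes, RMA log2), with 1 point per array coloured by group. SOCS2 and CISH climb with PRLR across the free wall and septum clusters (r = 0.92 and 0.87), and within the septum cluster JAK2 shows no slope (r = 0.07).

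**Figure D4:**
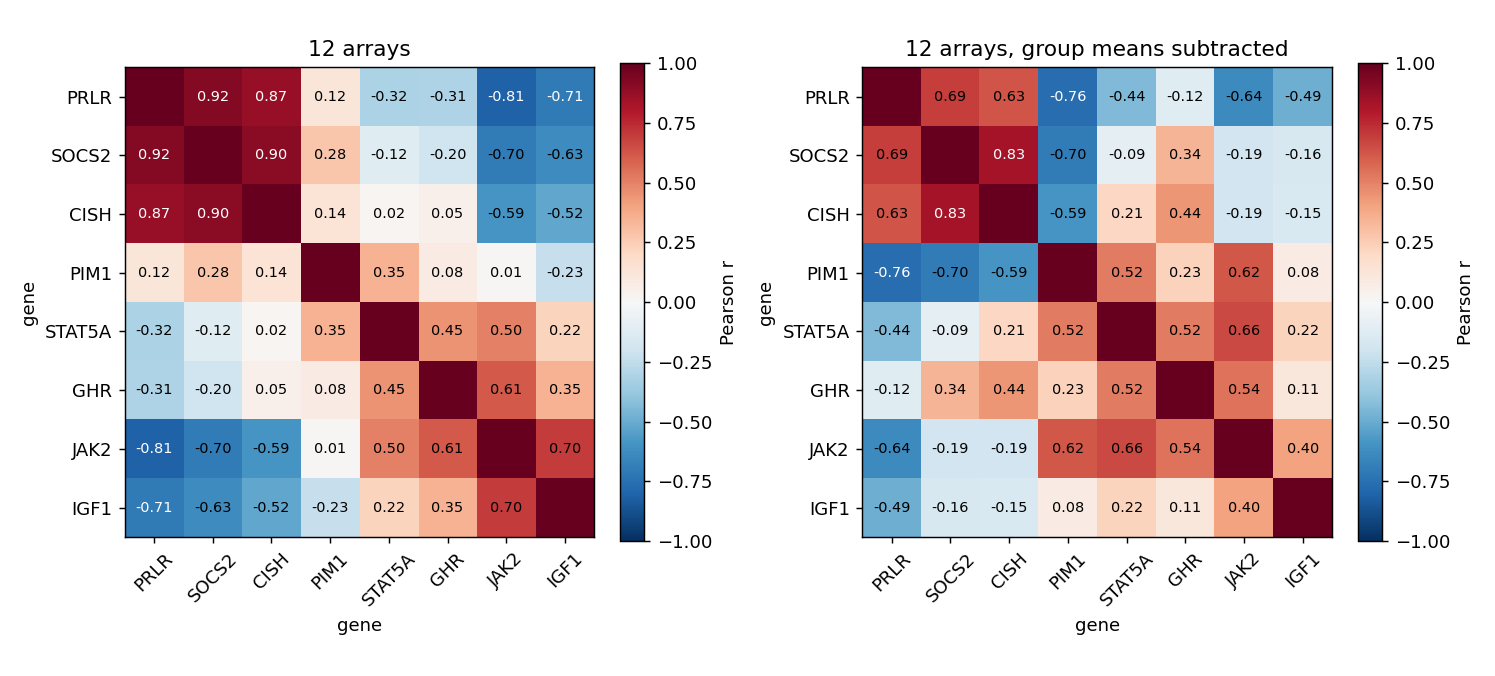
Pearson correlations between the 8 genes over 12 arrays on the left and with the group means subtracted on the right, on a colour scale from -1 to 1. The block of PRLR, SOCS2 and CISH stays at 0.63 or above in both panels. JAK2 against PRLR is at -0.81 on the left and -0.64 on the right, and JAK2 against SOCS2 at -0.70 and -0.19.

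Compared with all other probe sets tested, 20667 in number, SOCS2 held place 7 and CISH place 26 in correlation with PRLR. The places use r over all 12 arrays, which region enters, and these correlations were known when the genes were chosen. Nothing is read from the places. The named genes most like PRLR over the 12 arrays were RILP, a lysosome transport adaptor (r = 0.95), GATA6, a transcription factor of the heart (r = 0.95), and PDE4B, which breaks down cyclic AMP (r = 0.94). GATA6 was also the gene most like SOCS2 (r = 0.96) and CISH (r = 0.95). SOCS2 was further most like FAT1, a large cadherin (0.95), and MAPKAPK3, a stress kinase (0.94), and CISH most like SH2B3 (0.94) and PDE4B (0.92). GATA6 averaged 10.26 in septum EXP, 9.547 in free wall EXP, 10.04 in septum CTL and 9.65 in free wall CTL arrays, a mean regional difference of 0.55 (SE 0.11). GATA6 was not called for it by limma (adjusted p = 0.269).

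The remaining genes had other companions. JAK2 was most like PSMB7, a proteasome subunit (0.97), USP8, a deubiquitinase (0.96), and DZIP1 (0.95). IGF1 was most like NRDC (0.94), MPPED2 (0.92) and THUMPD3 (0.92). GHR was most like PPFIBP1 (0.90), BTF3L4 (0.88) and SS18 (0.88), STAT5A most like UBE2L3 (0.90), NSL1 (0.90) and KATNAL1 (0.89), and PIM1 most like EXOSC1 (0.90), EDEM1 (0.89) and LSM14A (0.89). None of the 3 genes named for JAK2, IGF1, GHR, STAT5A or PIM1 was named for PRLR, SOCS2 or CISH.

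Genes that neighbour the 8 in the RefSeq gene order of the pig were also looked at, with array values for some of the 3 nearest on each side. Beside PRLR, BRIX1 had a regional difference of -0.17 (SE 0.14) and DNAJC21 of -0.08 (SE 0.08), and their correlations with PRLR were r = -0.46 and -0.37. Beside CISH lies MAPKAPK3, already named, with 0.36 (SE 0.09) and r = 0.87 with CISH. DOCK3, on the far side of MAPKAPK3, had -0.17 (SE 0.09). Near SOCS2, PLXNC1 had 0.27 (SE 0.11), while UBE2N and NUDT4 had 0.00 and -0.06. PRLR, CISH and SOCS2 were chosen with their regional differences known, so nothing is read from the smaller values of their neighbours. Near STAT5A (-0.07), GHDC had -0.13 (SE 0.21) and STAT3 0.11 (SE 0.08). Near JAK2 (-0.33), RLN2 had -0.28 (SE 0.20).

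Other genes of the pathway were read from 8 lists with 131 genes, of which 90 were on the array and 77 passed the filter. With limma, 0 of the 77 passed an adjusted p under 0.05 in either direction in any of the 7 comparisons. For the regions in both treatments 8 of 77 (10.4%) had an unadjusted p under 0.05, where 7.83% of all probe sets did. In paced pigs it was 6 (7.79%, against 6.73%) and in control pigs 1 (1.3%, against 3.67%). For pacing it was 3 in the septum (3.9%, against 4.65%) and 1 in the free wall (1.3%, against 4.56%), and 0 for the difference between these effects. The median regional difference of the 77 genes was 0.08, beside 0.01 for all probe sets. The regional differences of PRLR, SOCS2 and CISH were larger than those of all 77, but these genes were chosen with their values known. Nothing is read from that order.

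Of the hormones, prolactin itself (PRL) lay between 2.44 and 3.06 on all arrays, under the filter. The growth hormone gene GH1 differed by 0.06 (SE 0.13) between regions, and the hormones with the smallest p, EPO and GHRH, by 0.17 (SE 0.10) and -0.19 (SE 0.15). Among the receptors, IGF1R, through which IGF1 acts, differed by 0.01 (SE 0.09), and IGF2R, which takes up IGF2, by 0.16 (SE 0.07, limma adjusted p = 0.645). The erythropoietin receptor EPOR, another user of JAK2, was 0.60 (SE 0.22) higher with pacing in the free wall and did not pass (limma adjusted p = 0.998). Its free wall CTL mean, 2.98, lay under the filter cut of 2.998, and its highest free wall EXP signal, 3.93, came from array 2, which stood apart. The insulin receptor INSR differed by -0.53 (SE 0.22) with pacing in the septum and did not pass either (limma adjusted p = 0.992).

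Among kinases and adaptors, SH2B2, an adaptor that binds JAK2, was 0.31 (SE 0.09) higher in the septum (limma adjusted p = 0.401), and SHC1, which links receptors to Ras, was 0.23 (SE 0.08) higher (limma adjusted p = 0.489). SHC1 was also 0.35 (SE 0.11) higher with pacing in the septum (limma adjusted p = 0.989). None of these passed. Of the other STATs, STAT6 differed by 0.21 (SE 0.08) and STAT3, next to STAT5A in the genome, by 0.11 (SE 0.08).

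The negative regulator with the smallest p was SH2B3, an adaptor that restrains JAK2. It had 5.21, 4.96 and 5.25 in septum EXP arrays, 4.38, 4.60 and 4.85 in free wall EXP arrays, 4.82, 4.98 and 4.69 in septum CTL arrays and 4.77, 4.84 and 4.01 in free wall CTL arrays. The regions separated in paced pigs and overlapped in control pigs, as for CISH, and the mean difference was 0.41 (SE 0.15, limma adjusted p = 0.533). PIAS1, a SUMO ligase that restrains STATs, differed by -0.19 (SE 0.08, limma adjusted p = 0.572). Of the other STAT5 targets, FOS differed by 0.25 (SE 0.11, limma adjusted p = 0.613), and 13 of the 16 tested lay above 0, as did 56 of the 77 pathway genes and 53.4% of all probe sets. Among the proteins that bind or free IGF, STC2, an inhibitor of the protease PAPPA, differed by -0.26 (SE 0.11, limma adjusted p = 0.613), and the list's median was 0.02. STC1, a related inhibitor, was 0.88 (SE 0.40) higher with pacing in the septum and did not pass (limma adjusted p = 0.992). It had 8.02, 7.46 and 7.68 in septum EXP and 7.42, 7.12 and 5.98 in septum CTL arrays, so the low array 3 bears on the size. The sex steroid receptors ESR1, ESR2 and PGR lay under the filter and were not tested. NR3C2, the mineralocorticoid receptor kept on the same list, differed by 0.20 (SE 0.10, limma adjusted p = 0.65).

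**Figure D5:**
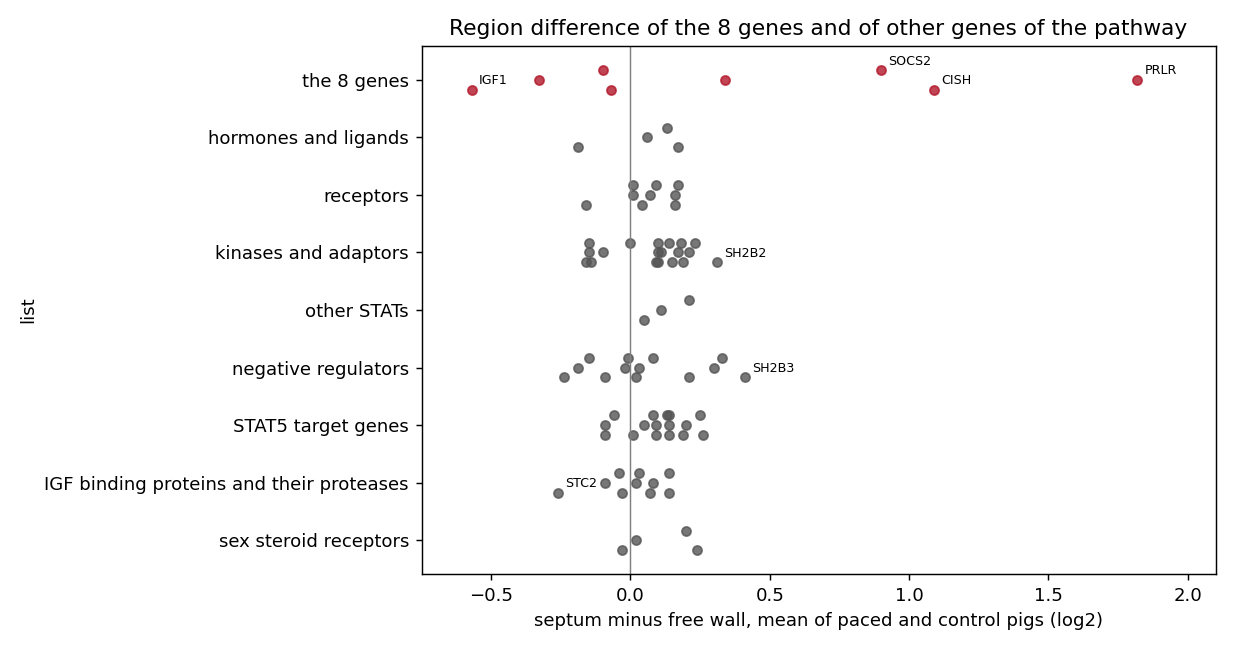
Septum minus free wall difference (log2, mean of paced and control pigs) of the 8 genes (top) and of the 77 other tested pathway genes. Each list has 1 line with 1 point per gene, and IGFALS, which is on more than 1 list, is drawn on each. PRLR, CISH and SOCS2, chosen with such values known, lie at 1.82, 1.09 and 0.90. Of the other genes, the farthest to the right is SH2B3 at 0.41.

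Cell type markers were set beside the regional pattern. In whole tissue, fewer cells of a type and less RNA per cell cannot be told apart. The septum minus free wall difference of the marker lists was 0.04 for cardiomyocytes, 0.14 for vascular endothelium, -0.13 for fibroblasts, 0.04 for macrophages, -0.03 for smooth muscle and pericytes, 0.08 for adipocytes, -0.01 for lymphocytes and 0.02 for red blood cells. Nerve had a single marker on the array, CNTN1, at -0.27. The list with the largest positive shift was atrial muscle, with 0.26. All 5 of its markers were on the array, and their mean lay between 6.38 and 6.45 in septum EXP, 5.70 and 6.53 in free wall EXP, 6.05 and 6.54 in septum CTL and 5.51 and 6.89 in free wall CTL arrays. MYL7, the atrial myosin light chain, was 0.61, NPPA 0.54 and SLN 0.21 higher in the septum, and MYL4 and NR2F1 differed by -0.01 and -0.07. The atrial list had r = 0.01 with PRLR, 0.18 with SOCS2 and -0.11 with CISH over the 12 arrays.

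The fibroblast list, 6 of whose 7 markers were on the array, lay between 8.33 and 8.48 in septum EXP, 8.46 and 8.60 in free wall EXP, 7.49 and 8.69 in septum CTL and 7.44 and 8.70 in free wall CTL arrays. It went with IGF1 (r = 0.68) and JAK2 (r = 0.52) more than with PRLR (r = -0.30). The adipocyte list, with 4 of 6 markers on the array, had the strongest correlation with JAK2 (r = -0.64) and the highest with PRLR (r = 0.43), at a mean level of 3.34 to 3.95. CNTN1 had r = -0.48 with SOCS2 and -0.47 with CISH. The part of these cell types in the differences of the 8 genes was not tested.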

How the data were processed

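Total RNA of pig left ventricle was hybridised to 12 Affymetrix arrays, 3 in each of 4 groups taken from the labels. The deposited values are log2 signals, and Affymetrix Expression Console 1.4 and RMA are the tools named by the submitters' processing notes. RMA corrects background, quantile normalises the arrays and summarises probes. The array's genome build is not given in the sources used here, so a RefSeq gene table (Sscrofa11.1) served only for names and for which genes are neighbours. Of 27558 probe sets, 13323 had 1 gene symbol, 357 had several and 13878 had none here; 7 symbols were brought up to date. A gene with several probe sets is represented by the one with the highest mean.

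Probe sets in the lowest 25% by mean (under 2.998) were left out, and 20668 were tested with limma 3.58.1 in R 4.3.3. Each group had its own mean over all 12 arrays (8 residual and 3.68 prior degrees of freedom), or, for regions averaged by array number, 6 means were used (4 residual). Tests were two-sided with Benjamini-Hochberg adjustment over all probe sets tested, and a call is an adjusted p under 0.05. The comparison of regions over both treatments was added after seeing the data. The number of arrays limits the precision, and each p reflects the scatter of these arrays only. The code was tested on simulated data.

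The 8 genes, the pathway lists and the marker lists were chosen with earlier results of these data known. Named genes were the 8 and, for each of them, the 3 genes with the highest Pearson r. From each pathway list in each comparison, genes called (0 here) and the 2 with the smallest p could be named, and the text names only some of these. PRL, the regional values of GH1 and IGF1R, the genes at or under the filter and the genome neighbours stand outside this rule and are named for their role or position.

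Same-numbered septum and free wall arrays had correlated deviations from the group means in controls (r = 0.3183, 0.2525 and 0.2446) but not in paced animals (0.08914, -0.1735 and -0.1807). Alternatives were other filters, another scaling, trend and robust variances, array weights, the array number as a block, only the arrays compared, and each array left out. Figures were drawn with matplotlib 3.10.9.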

Additional observations from a re-analysis of the deposited data

How the results depend on the processing

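Over the alternatives the regional difference for both treatments ranged from 1.55 to 2.07 for PRLR, 0.83 to 0.98 for SOCS2, 0.85 to 1.25 for CISH, -0.71 to -0.47 for IGF1 and -0.41 to -0.29 for JAK2, and that of PRLR in control pigs from 0.81 to 1.85. Pacing differences were less steady, and single arrays turned the sign of several, as given beside them. Calls over all probe sets are few and unsteady. For the regions in both treatments 2 were called, with 1 when the lowest 50% was left out or the arrays were quantile normalised once more, 4 with trend and robust variances, 4 with array weights, and 0 to 3 without single arrays. Among the 8 genes 1, SOCS2, was called there with trend and robust variances and 1, again SOCS2, with array weights, against 0 otherwise. For pacing in the septum 2 were called, 1 with only the arrays compared and 1 to 4 without single arrays. For pacing in the free wall 1 was called, 2 with array weights, 0 with only the arrays compared and 0 to 1 without single arrays. For the regions in paced pigs 0 were called, and 0 to 7 without single arrays, the 7 without septum EXP array 2. For pacing with regions averaged 1 was called, and 0 to 1 without single array numbers. The cause of these shifts was not tested.

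With the array number as a fixed replicate block, septum against free wall gave 1 call in paced pigs, 1 over both treatments and 0 in control pigs, where same-numbered arrays had correlated deviations. A random block gave the counts of the fit without it, and neither block called any of the 8 genes (0).

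The correlation of PRLR and SOCS2, 0.92, was 0.69 with group means subtracted, 0.65 within the septum and 0.89 to 0.94 without single arrays. That of PRLR and CISH ranged from 0.82 to 0.91 without single arrays, and that of SOCS2 and CISH from 0.87 to 0.95, with 0.56 within the free wall. PRLR and JAK2 ranged from -0.87 to -0.74, PRLR and IGF1 from -0.79 to -0.62 and JAK2 and IGF1 from 0.61 to 0.81 without single arrays, while within the septum they stood at 0.07, -0.19 and 0.96. With group means subtracted these pairs stood at -0.64, -0.49 and 0.40. Arrays have no count depth, and 3 arrays per group limit every value.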
